A study of Mus musculus with 36 samples.

Results

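The expression of 9 genes that set passage through G1 was followed in differentiating Xmas mouse embryonic stem cells (mESCs). They were the D-type cyclin genes Ccnd1, Ccnd2 and Ccnd3, the E-type cyclin genes Ccne1 and Ccne2, and the cyclin-dependent kinase (CDK) inhibitor genes Cdkn1a (p21), Cdkn1b (p27), Cdkn2a (Ink4a and Arf) and Cdkn2b (Ink4b). The members were taken by symbol, and all 9 were found among the 25965 genes of the table and passed the filter on low values, as did 14612 genes in all. Xmas mESCs were derived as female lines of the C57/Bl6 strain. As derived, 1 X chromosome carries a GFP reporter and the other an mCherry reporter, both at Hprt. The paper reports that cells with only the GFP or only the mCherry reporter become more frequent in culture. It takes such cells to have lost an X chromosome. The labels do not say how many such cells any library held, and this was not tested. Cells were held in the naive state with inhibitors of MEK and GSK3 (2i) and LIF, then weaned stepwise into serum medium, and RNA of the whole culture was taken each day from day 0 to day 8. Each day has 4 libraries, 36 in all: the lines X14 and X18, each with a library named double and one named single. What double and single stand for is not given by the labels, and the words are used only as names. Each line is a single derivation, no treatment or deletion other than the reporters is named for any library, and the labels do not say that the libraries of successive days came from separate cultures.

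D-type cyclins switch on CDK4 and CDK6, and E-type cyclins switch on CDK2. Together these kinases phosphorylate the retinoblastoma protein, which frees E2F factors to transcribe S phase genes. Ink4 proteins bind CDK4 and CDK6, whereas p21 and p27 act mainly on CDK2 complexes and Arf stabilises p53. Mouse ESCs grown in serum are known for a short G1 phase with high CDK2 activity, and this phase lengthens as cells differentiate. Whether this holds for cells kept with an inhibitor of MEK, as at the start of this course, was not tested. mRNA levels do not show protein levels or kinase activity, which for these genes are also set by protein turnover and phosphorylation.

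The libraries held between 612740 and 2445826 reads in genes, with a median of 1297944, so a floor of 3 reads lay between 1.04 and 3.90 reads per 1000000 reads (RPM). Levels are given in RPKM, reads per kilobase of exon and per 1000000 reads, which allows levels of different genes to be set side by side. In the day 0 libraries of line X14 the names double and single went against a pattern seen elsewhere. The median of X-linked genes relative to autosomal genes was lower in double than in single by 1.14 on the log2 scale there (−1.14, double minus single), whereas it was higher in double by 0.30 to 1.05 on days 1 to 8 of X14 and by 0.25 to 1.02 on the 9 days of X18. Comparisons of the names therefore used days 1 to 8, and results against day 0 were also computed without these 2 libraries. Day 0 is then X18 alone while later days hold both lines, so in those results day and line cannot be told apart. The X18 day 0 libraries were also shallower, with 756136 (double) and 963961 (single) reads in genes, against 1916784 and 1886838 in X14. ES cell markers were present on day 0, and all 8 were called lower on day 8. The summed level of 8 genes including Pou5f1, Sox2 and Nanog was 1807 RPKM on day 0 (median of 4 libraries, 1492 to 1983) and 195 RPKM on day 8 (137 to 313). The sum of 7 trophoblast markers was 27.6 RPKM on day 0 (21.4 to 35.3, Elf5 and Hand1 without a read), 9.94 RPKM on day 4 (2.51 to 17.6) and 138 RPKM on day 8 (83.3 to 196). That of 9 fibroblast markers was 1.95 RPKM (0.156 to 5.21) on day 0 and 10.1 RPKM (9.34 to 12.9) on day 8 with Prrx1 at 0 reads on both days, that of 8 extraembryonic endoderm markers was 184 RPKM (121 to 196) and 174 RPKM (145 to 197) with Ttr and Apoa1 at 0 reads on both days, and that of 5 neural markers was 46.6 RPKM (39.2 to 60.3) and 17.4 RPKM (12.9 to 19.1) with Neurog2 at 0 reads on both days. A sum can hide members that go another way. Of 5 tested endoderm markers 1 was called higher on day 8 and 0 lower (Dab2, mean 0.0473 RPKM on day 0 and 4.10 on day 8). Of 4 tested neural markers 1 was called higher (Nes, 2.26 and 6.86 RPKM) and 1 lower (Tubb3, 45.0 and 9.40 RPKM). The part of changing cell types in the levels below was not tested. In RNA of whole cultures fewer cells of a type and less RNA per cell cannot be told apart.

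In the mm10 coordinates of the table, Ccnd1 spans chr7:144929931-144939869 and Ccne1 chr7:38097984-38107534, both on the minus strand. Ccnd2 (chr6:127125779-127151048, minus) and Cdkn1b (chr6:134920401-134925513, plus) share chromosome 6, and Ccnd3 (chr17:47505051-47599683) and Cdkn1a (chr17:29090979-29100722) lie on the plus strand of chromosome 17. Ccne2 spans chr4:11191351-11204779 on the plus strand. Cdkn2a (chr4:89274473-89294653) and Cdkn2b (chr4:89306289-89311032) are neighbours on the minus strand of chromosome 4. Their start regions are shown because the single Cdkn2a value of the table sums transcripts from both of its starts, that of Arf upstream and that of Ink4a downstream, which cannot be separated here. The sequences are from RefSeq on GRCm38.p6, minus strand, 250 bases before and 50 after each start, with GC boxes (GGGCGG on either strand) in capitals.
Cdkn2b, chr4:89310983-89311282: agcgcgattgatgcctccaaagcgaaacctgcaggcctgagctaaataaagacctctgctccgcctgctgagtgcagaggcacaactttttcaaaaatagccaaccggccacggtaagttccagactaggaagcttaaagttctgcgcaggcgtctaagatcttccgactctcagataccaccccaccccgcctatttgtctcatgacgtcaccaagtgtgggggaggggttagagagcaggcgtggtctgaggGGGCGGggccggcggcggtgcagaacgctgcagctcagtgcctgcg
Cdkn2a upstream start, chr4:89294570-89294869: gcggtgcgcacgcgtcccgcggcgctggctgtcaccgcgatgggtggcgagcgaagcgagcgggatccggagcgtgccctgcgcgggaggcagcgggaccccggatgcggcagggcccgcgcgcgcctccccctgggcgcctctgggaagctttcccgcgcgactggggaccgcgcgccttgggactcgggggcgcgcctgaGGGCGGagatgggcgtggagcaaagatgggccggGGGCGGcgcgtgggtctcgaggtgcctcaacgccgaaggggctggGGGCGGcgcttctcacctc
Cdkn2a downstream start, chr4:89282143-89282442: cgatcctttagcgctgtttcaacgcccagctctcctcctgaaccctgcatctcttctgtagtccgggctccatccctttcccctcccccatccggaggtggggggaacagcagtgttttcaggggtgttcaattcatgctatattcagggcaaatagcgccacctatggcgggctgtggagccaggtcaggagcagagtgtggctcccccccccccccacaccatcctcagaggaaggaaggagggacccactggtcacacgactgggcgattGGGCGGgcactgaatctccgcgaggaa
The Cdkn2a upstream window held 3 GC boxes, and the other 2 windows held 1 each. Of the 9 genes 6 were matched to 9 windows (Ccnd1, Ccnd2 and Ccne2 were not), and 8 of these 9 windows held a GC box, against 35.7% of all 32851 windows. The E2F core (TTCCCGC as well as TTCGCGC, and TTGCCGC as well as TTGGCGC, on either strand, here not overlapping a GC box) was found in 1 of the 9 windows, 98 bases upstream of the Cdkn2a upstream start, and in 9.6% of all windows. These are matches of letters, not binding sites.

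Over the days of the course, levels changed at different times and in different directions from gene to gene, as the plot of levels by day shows. Ccnd2 rose from almost no reads to a maximum on day 4. Cdkn1b fell on days 2 and 3 and then exceeded its day 0 level on days 5 and 7. Ccne2 and Cdkn2a reached minima on days 5 and 6. Cdkn2b was called higher on days 7 and 8 from few reads, with little change in the summed reads of X14 on day 8. A difference between days was found for 8 of the 9 genes (limma F test on day alone, adjusted p under 0.05), against a background of 65.2% of genes tested. Cdkn1a was the exception (adjusted p = 0.114).

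**Figure D1:**
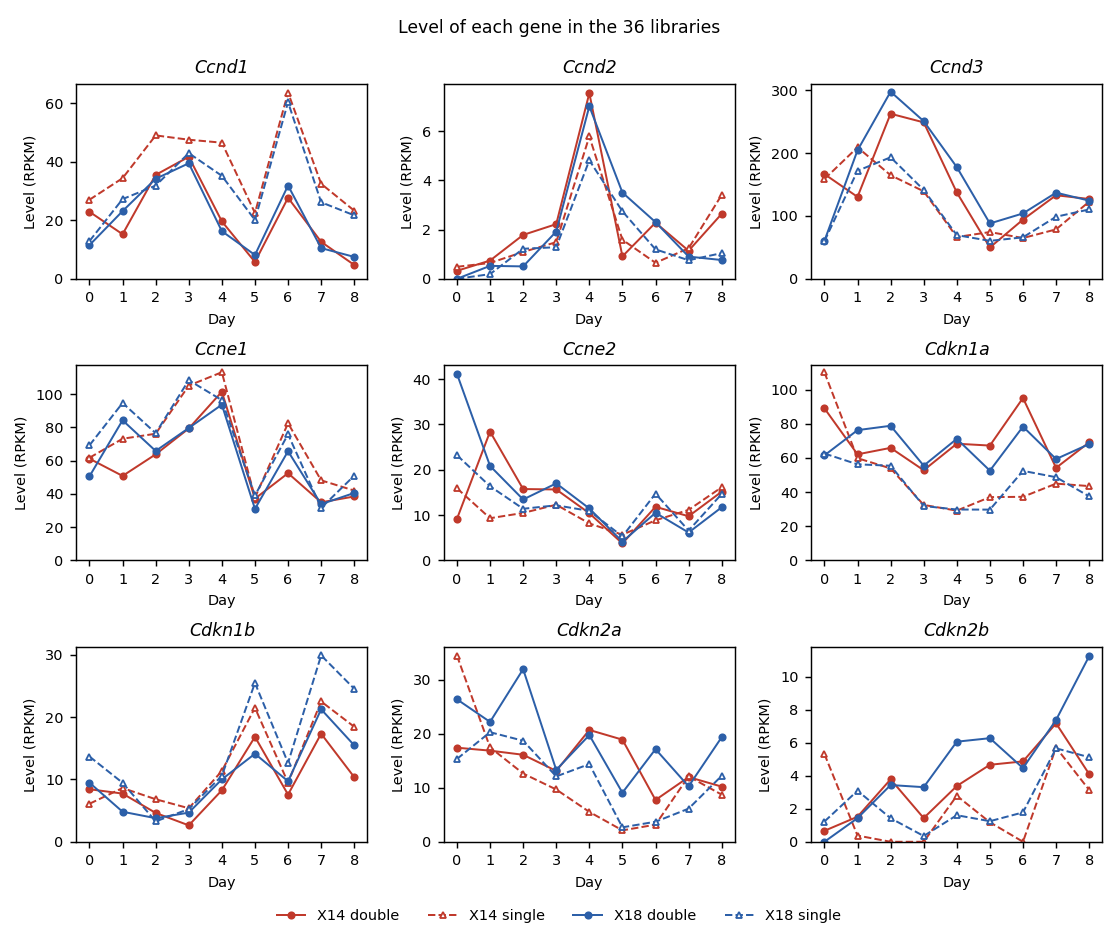
Level (RPKM, vertical axes from 0, scaled per gene) of each of the 9 genes by day in the 4 series of libraries, X14 in red, X18 in blue, double with filled circles and solid lines, single with open triangles and dashed lines. All 4 series of Ccnd2 peak on day 4, between 4.82 and 7.55 RPKM, and on days 4 to 8 the single libraries of Ccnd1 lie above the double libraries of the same line.

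A gene was called changed when its adjusted p over all genes tested was under 0.05 and its difference was at least 2-fold. On day 1 against day 0 none of the 9 was called higher or lower by limma (background 0.0342% higher and 0.0342% lower), 1 had an unadjusted p under 0.05, and voom, the alternative on recovered reads, also called 0, with 2 at an unadjusted p under 0.05. On day 2, 2 were called higher and 1 lower (background 2.09% and 0.876%). On day 3, 1 was higher and 1 lower (background 5.72% and 3.17%), and on day 4, 1 was higher and 0 lower (background 12.2% and 6.40%). Day 5 had 2 higher and 2 lower (background 15.8% and 11.0%), day 6 had 2 higher and 1 lower (background 22.4% and 11.0%), day 7 had 3 higher and 1 lower (background 23.8% and 11.6%) and day 8 had 2 higher and 0 lower (background 23.9% and 11.1%). Day 8 against day 4 had 0 higher and 3 lower (background 15.7% and 9.01%). The median log2 change of the 9 genes was −0.43 on day 8 against day 0, where the median of all genes tested was 0.23. These comparisons share the day 0 libraries. From day 5 on, the counts against day 0 lay near these backgrounds and say nothing particular of the 9 genes. The 3 of 9 called lower on day 8 against day 4 lay above their background of 9.01%, and whether this exceeds chance was not tested.

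**Figure D2:**
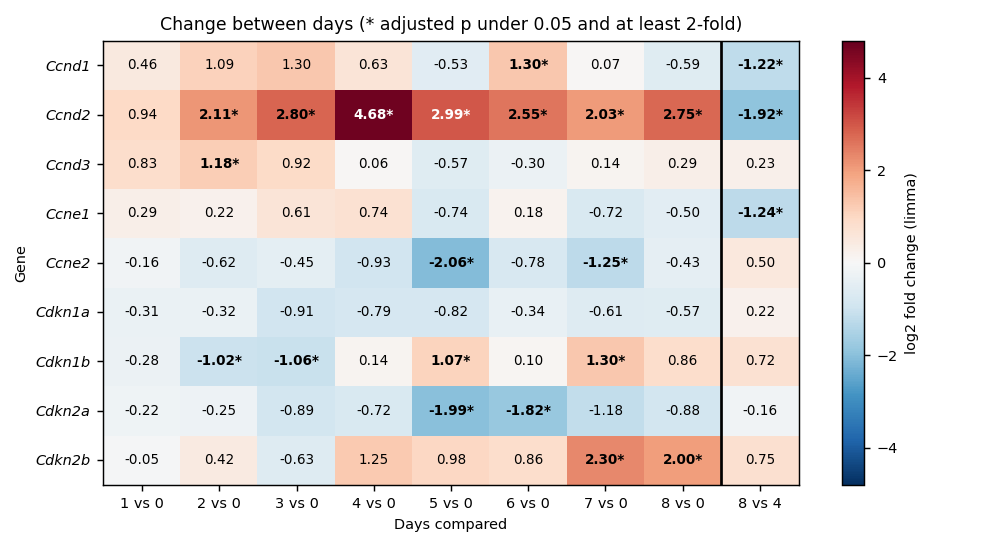
Log2 fold change of each of the 9 genes (rows) on each day against day 0 and on day 8 against day 4 (columns), red for higher and blue for lower, with calls in bold and starred. Ccnd2 is called higher on all days from day 2 to day 8, with its largest value of 4.68 on day 4.

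Ccnd1, the D-type cyclin gene that mitogen signalling through ERK is known to induce, followed no single direction. On day 0 its level was 22.9 RPKM in X14 double, 27 in X14 single, 11.5 in X18 double and 12.9 in X18 single. On day 3 the same libraries had 41.7, 47.6, 39.5 and 43.0 RPKM, on day 5 they had 5.76, 22.5, 8.14 and 20.1 RPKM, and on day 6 they had 27.7, 63.7, 31.9 and 60.4 RPKM. The day 3 and day 6 libraries all lay above the day 0 libraries, while those of day 5 overlapped them. The mean was highest on day 6 (45.9 ± 18.8 RPKM, SD, n = 4) and next on day 3 (42.9 ± 3.40 RPKM). From day 3 to day 6 the double series of both lines fell and the single series of both lines rose, and these days were not tested against each other. The mean was lowest on day 5 (14.1 ± 8.41 RPKM) and close to that on day 8 (14.3 ± 9.56 RPKM). Ccnd1 was called higher on day 6 (log2 change 1.30, SE 0.46, adjusted p = 0.0204) and lower on day 8 than on day 4 (−1.22, SE 0.46, adjusted p = 0.0382). The day 6 call was lost without X18 double (1.25, adjusted p = 0.0897) or X18 single (0.99, adjusted p = 0.168). The fall from day 4 to day 8 was lost without X14 double (−0.94, adjusted p = 0.147), X18 double (−1.25, adjusted p = 0.100) or X18 single (−1.39, adjusted p = 0.0605), and in a fit of those days alone (−1.22, adjusted p = 0.0911). The difference on day 3 (1.30) was not called, but was with the replicate block (adjusted p = 0.00336), and without the X14 day 0 libraries both day 2 (1.61, adjusted p = 0.0262) and day 3 (1.81, adjusted p = 0.0117) were called higher. With the replicate block day 2 was called as well (1.09, adjusted p = 0.0249).

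Ccnd2, a D-type cyclin used by many differentiating lineages, showed the largest change of the 9 genes. On day 0 it had 0.325 RPKM in X14 double (4 reads), 0.487 in X14 single (6 reads) and no read in either X18 library. On day 4 it had 7.55, 5.79, 7.01 and 4.82 RPKM in the same order, and on day 8 it had 2.64, 3.41, 0.763 and 1.04 RPKM. Every library of days 2 to 8 lay above every day 0 library, and the 4 libraries of day 4 lay above all others of the course, of which the next was 3.51 RPKM in X18 double on day 5. Ccnd2 was called higher on day 2 (log2 change 2.11, SE 0.53, adjusted p = 0.0225), day 3 (2.80, SE 0.53, adjusted p = 5.55e-04), day 4 (4.68, SE 0.53, adjusted p = 3.74e-08) and day 8 (2.75, SE 0.53, adjusted p = 7.66e-05). On days 5 to 7 it was called higher with log2 changes of 2.03 to 2.99. Because day 0 is near 0, these fitted values depend on the 0.9 read written for a library without reads. In summed reads, day 4 had 235 reads and day 0 had 10, a ratio of 23.0 in RPM (95% exact interval 12.3 to 48.7). In X14 alone the ratio was 16.4 (8.59 to 35.1), and in X18, where day 0 had no read, day 4 was at least 24.1-fold higher against a floor of 3 reads over the group. On day 8 the ratio over all libraries was 8.55 (4.41 to 18.5). The day 2 call was lost without X18 double (2.27, adjusted p = 0.165) or X18 single (1.75, adjusted p = 0.270) and in a fit of those days alone (2.11, adjusted p = 0.238). Day 8 was called lower than day 4 (−1.92, SE 0.53, adjusted p = 0.00518), a call lost without X18 double (−1.5, adjusted p = 0.0816). Antisense genes overlap Ccnd2, and whether counting used the strand is not given in the sources used here.

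Ccnd3 was the most abundant of the D-type cyclin genes in every library by RPKM, which rests on the exon lengths given below. In reads Ccnd1 exceeded Ccnd3 in some libraries, as on day 6 in X14 single (198 against 111) and X18 single (374 against 225). On day 0 Ccnd3 had 167 RPKM in X14 double, 159 in X14 single, 60.3 in X18 double and 59.8 in X18 single. On day 2 the same libraries had 263, 165, 298 and 193 RPKM, and on day 8 they had 127, 123, 124 and 110 RPKM. The lines were therefore far apart on day 0, where the 2 X14 libraries go against the pattern of their names, and lay together on day 8. The rise on day 2 was called (log2 change 1.18, SE 0.32, adjusted p = 0.0315), with all 4 same-numbered libraries higher and the groups overlapping. It was lost without X18 double (0.80, adjusted p = 0.548) or X18 single (1.01, adjusted p = 0.291) and in a fit of those days alone (1.18, adjusted p = 0.261). Without the X14 day 0 libraries, with day 0 from X18 alone, the rise was 1.90 on day 2 (adjusted p = 1.29e-04). Ccnd3 was then also called higher on day 1 (1.55, adjusted p = 0.00500), day 3 (1.64, adjusted p = 4.20e-04) and day 8 (1.01, adjusted p = 0.0121). The lowest mean was on day 5 (68.2 ± 16.7 RPKM, SD, n = 4), against 111 ± 59.3 RPKM on day 0.

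The share of Ccnd3 among D-type cyclin transcripts was lowest on day 6 and as high on day 8 as on day 0. Of the summed RPKM of the D-type cyclin genes, Ccnd3 made up 84.8% ± 2.32 (SD, n = 4) on day 0. Its share was 72.8% ± 15.6 on day 4, 63.2% ± 14.2 on day 6, and by day 8 88.3% ± 6.73. The sum itself was 130 ± 66.9 RPKM on day 0 and 268 ± 56.9 RPKM on day 2. By day 5 it had dropped to 84.5 ± 20.1 RPKM, and day 8 had 137 ± 8.10 RPKM. The share of Ccnd2 was greatest on day 4, at 4.34% ± 0.598. The wide spread of days 4 and 6 followed the names of the libraries. On day 4 Ccnd1 made up 8.11% and 11.9% in the double libraries and 32.2% and 39.2% in the single libraries. On day 6 it made up 22.3% and 23.1% in the double and 47.4% and 49.3% in the single libraries, and on day 8 3.53% and 5.65% against 15.6% and 16.3%. The exon lengths behind these RPKM values are those of the table, 3835 bases for Ccnd1, 5701 for Ccnd2 and 2113 for Ccnd3. They were shorter than the merged exons of GENCODE M21 (4709, 9409 and 8775 bases). The absolute shares, and in some libraries the order of Ccnd1 and Ccnd3, therefore depend on the annotation.

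**Figure D3:**
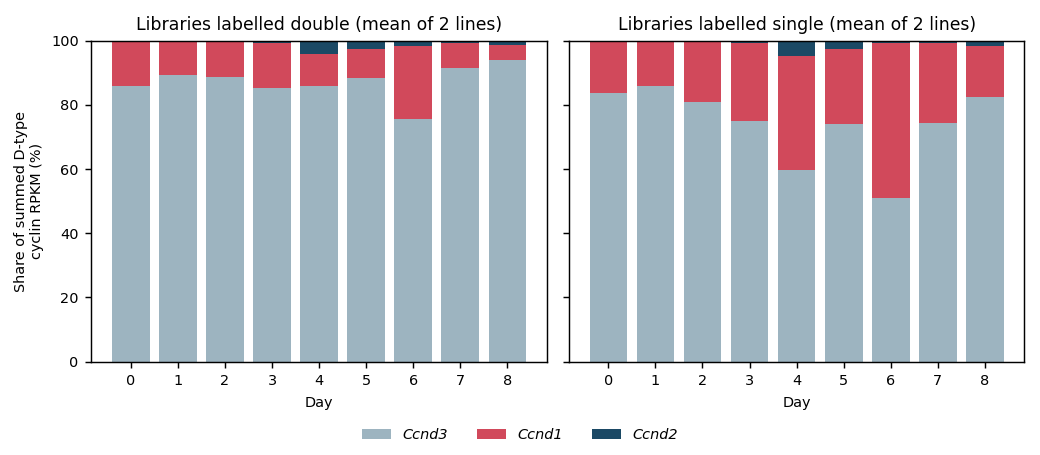
Share of the summed RPKM of the D-type cyclin genes (vertical axis, percent) taken by Ccnd3 (grey), Ccnd1 (red) and Ccnd2 (dark blue) on each day, as the mean of the X14 and X18 libraries named double (left) and single (right). On day 6 the mean share of Ccnd1 was 22.7% in the double and 48.3% in the single libraries.

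Ccne1 encodes the main CDK2 partner at the G1 to S transition. It rose to day 4 and was below its day 0 level on days 5, 7 and 8, but not on day 6. The day 0 levels were 61.2 RPKM in X14 double, 61.8 in X14 single, 50.6 in X18 double and 69.3 in X18 single. On day 4 these libraries had 102, 113, 93.7 and 96.4 RPKM, on day 5 they had 37.1, 37.7, 31.0 and 39.0 RPKM, and on day 8 they had 38.4, 42.0, 40.5 and 50.9 RPKM. The day 4 libraries all lay above, and the day 5 libraries all below, those of day 0. On day 6 the mean was 69.1 ± 13.1 RPKM, against 60.7 ± 7.69 RPKM on day 0 (SD, n = 4). That difference did not pass the limma test (log2 change 0.18, SE 0.18, adjusted p = 0.434). The rise on day 3 (log2 change 0.61, SE 0.18, adjusted p = 0.0196) and day 4 (0.74, SE 0.18, adjusted p = 0.002) and the lower level on day 5 (−0.74, SE 0.18, adjusted p = 0.00126), day 7 (−0.72, adjusted p = 0.00119) and day 8 (−0.50, adjusted p = 0.0209) passed the test but were under 2-fold. Days 4, 5 and 7 passed in each of 13 alternatives. Day 3 missed it in 5 of them, without X14 single (0.56, adjusted p = 0.123), X18 double (0.60, adjusted p = 0.158) or X18 single (0.60, adjusted p = 0.125), in a fit of those days alone (0.61, adjusted p = 0.124) and with scaling to the 75th percentile (0.50, adjusted p = 0.0515). Day 8 missed it in 6, without any single one of the 4 series (−0.56 to −0.44, adjusted p = 0.0535 to 0.0853), without the X14 day 0 libraries (−0.47, adjusted p = 0.0713) and in a fit of those days alone (−0.50, adjusted p = 0.159). The fall from day 4 to day 8 was called (−1.24, SE 0.18, adjusted p = 1.45e-06), and it was called in all 12 alternatives run for it (−1.35 to −1.18).

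Ccne2, the paralogue of Ccne1, was lowest in the middle of the course. On day 0 its level was 9.13 RPKM in X14 double, 15.9 in X14 single, 41.2 in X18 double and 23.2 in X18 single. On day 5 the same libraries had 3.72, 5.65, 4.11 and 5.27 RPKM, all below day 0, and on day 8 they had 15.2, 16.1, 11.7 and 14.6 RPKM, within the range of day 0. It was called lower on day 5 (log2 change −2.06, SE 0.31, adjusted p = 4.15e-06) and day 7 (−1.25, SE 0.31, adjusted p = 0.00154), and the day 7 call was lost without X18 double (−0.75, adjusted p = 0.105). Day 4 (−0.93, adjusted p = 0.0271) and day 6 (−0.78, adjusted p = 0.0430) passed the test but were under 2-fold, and both missed it without X14 single (adjusted p = 0.0771 and 0.0988), X18 double (0.274 and 0.446) or X18 single (0.16 and 0.126), and in fits of the compared days alone (0.136 and 0.146). Day 6 also missed it with voom (−0.65, adjusted p = 0.0893) and without the filter on low values (adjusted p = 0.0519). Without the X14 day 0 libraries, which were the lowest of day 0, only X18 stood for day 0. Ccne2 was then also called lower on days 2, 3, 4, 6 and 8 (−1.61 to −1.11). Without X14 double, days 2, 4 and 6 were called lower (−1.30 to −1.08). The ratio of Ccne1 to Ccne2 in RPKM had a mean of 3.70 at the start (4 libraries, 1.23 to 6.70), 10.2 on day 4 (8.19 to 13.9) and 3.02 at the end (2.54 to 3.48). Ints8 overlaps the 3′ end of Ccne2 on the other strand, as Bysl does at Ccnd3 and Oraov1 at Ccnd1, so reads of these pairs cannot be told apart if strand was not used.

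Cdkn1a, which encodes p21, a target of p53 that inhibits CDK2, was the only one of the 9 without a difference over the days at an adjusted p under 0.05 (F test, 0.114). That test held day alone, so the difference of Cdkn1a between the names, given below, counted as spread. The F test was not run with the replicate block, so this does not show a level without change. The level was 89.1 RPKM on day 0 in X14 double, 110 in X14 single, 61.5 in X18 double and 62.6 in X18 single. On day 3 these libraries had 52.8, 32.4, 55.5 and 31.8 RPKM, all below day 0, and on day 8 they had 69.1, 43.5, 68.1 and 37.5 RPKM. Day 3 (log2 change −0.91, SE 0.30, adjusted p = 0.0414) and day 5 (−0.82, SE 0.30, adjusted p = 0.0323) passed the test but were under 2-fold. Both missed it without the X14 day 0 libraries (−0.57 and −0.48, adjusted p = 0.241 and 0.301), without X14 single (−0.63 and −0.57, adjusted p = 0.268 and 0.222) or without X18 single (−0.89 and −0.74, adjusted p = 0.174 and 0.133), with quantile normalisation (−0.86 and −0.69, adjusted p = 0.0698 and 0.0832) and in fits of the compared days alone (adjusted p = 0.0995 and 0.0772). Day 3 missed it also without X18 double (−1.17, adjusted p = 0.0678). Day 3 was called lower with scaling to the 75th percentile (−1.02, adjusted p = 0.0224), and days 4 and 5 without X18 double (−1.13, adjusted p = 0.0316, and −1.02, adjusted p = 0.0359).

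Cdkn1b, which encodes p27, turned direction on several days. It began on day 0 at 8.44 RPKM in X14 double, 6.10 in X14 single, 9.48 in X18 double and 13.7 in X18 single. Its mean was 4.63 ± 1.57 RPKM (SD, n = 4) on day 2 and 4.49 ± 1.27 RPKM on day 3, then 19.5 ± 5.03 RPKM on day 5, 9.86 ± 2.10 RPKM on day 6 and 22.8 ± 5.26 RPKM on day 7. All 4 libraries of day 5 (14.1 to 25.5 RPKM) and day 7 (17.4 to 29.9 RPKM) lay above all of day 6 (7.58 to 12.7 RPKM) and day 0. Ccnd1 and Ccne1 had the opposite course, lower on days 5 and 7 than on day 6 in all 4 series of libraries. The differences of day 6 from days 5 and 7 were not tested. Day 5 held both the shallowest and the deepest library of the series. Cdkn1b was called lower on day 2 (log2 change −1.02, SE 0.29, adjusted p = 0.0393) and day 3 (−1.06, SE 0.29, adjusted p = 0.0139) and higher on day 5 (1.07, SE 0.29, adjusted p = 0.00404) and day 7 (1.30, SE 0.29, adjusted p = 4.37e-04). On day 8 it was higher by less than 2-fold (0.86, adjusted p = 0.0151), and missed the test without X14 single (0.62, adjusted p = 0.170), X18 double (0.91, adjusted p = 0.0554) or the X14 day 0 libraries (0.53, adjusted p = 0.207), in a fit of those days alone (adjusted p = 0.0855), with scaling to the 75th percentile (0.66, adjusted p = 0.0661) and with quantile normalisation (0.57, adjusted p = 0.115). Without the X14 day 0 libraries the later calls were lost (day 5 0.74, adjusted p = 0.0838, and day 7 0.97, adjusted p = 0.0183), as was day 5 without X14 single (0.82, adjusted p = 0.0836). The day 2 and day 3 calls were lost without X18 double (−0.92 and −1.08, adjusted p = 0.490 and 0.110), without X18 single (−0.68 and −0.96, adjusted p = 0.354 and 0.0998), with voom (−0.93 and −0.98) and in fits of the compared days alone, day 2 also with log2(RPM + 1) (−0.99, adjusted p = 0.0357) and day 3 also without X14 double (−0.86, adjusted p = 0.0426).

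Cdkn2a rested on few reads, 3 to 87 per library, over an exon length of 1170 bases. Its mean over the 36 libraries was 14.3 RPKM. The day 0 libraries had 17.4 RPKM in X14 double, 34.4 in X14 single, 26.4 in X18 double and 15.3 in X18 single. On day 5 these libraries had 18.9, 2.11, 9.07 and 2.67 RPKM, and on day 6 they had 7.73, 3.16, 17.1 and 3.71 RPKM. The single libraries were the lowest on both days, and on each day 1 of the 2 double libraries, X14 on day 5 and X18 on day 6, lay within the range of day 0. Cdkn2a was called lower on day 5 (log2 change −1.99, SE 0.50, adjusted p = 0.00227) and day 6 (−1.82, SE 0.50, adjusted p = 0.00402), and both calls were lost without X14 single (−1.31, adjusted p = 0.0588, and −1.28, adjusted p = 0.0514). On day 7 the change of −1.18 was not called, but was with the replicate block (adjusted p = 0.0204) and with voom (−1.17, adjusted p = 0.0255).

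Cdkn2b had 0 to 20 reads per library. On day 0 it had 0.664 RPKM in X14 double (2 reads), 5.32 in X14 single (16 reads), no read in X18 double and 1.23 RPKM in X18 single (2 reads). On day 7 it had 7.18, 5.71, 7.38 and 5.66 RPKM, all above day 0, and on day 8 it had 4.10, 3.14, 11.2 and 5.12 RPKM, which overlapped day 0 through X14 single. It was called higher on day 7 (log2 change 2.30, SE 0.78, adjusted p = 0.0151) and day 8 (2.00, SE 0.78, adjusted p = 0.0341). In summed reads the day 7 ratio to day 0 was 2.95 (52 against 20 reads, 95% exact interval 1.73 to 5.22), with 2.22 in X14 (1.19 to 4.25) and 6.42 in X18 (2.38 to 84.2, from 2 reads on day 0). Both calls were lost without X14 double (1.93 and 1.80, adjusted p = 0.0983 and 0.129), X18 double (1.91 and 1.31, adjusted p = 0.0929 and 0.258) or X18 single (2.34 and 1.98, adjusted p = 0.0571 and 0.0991) and with quantile normalisation (1.76 and 1.41, adjusted p = 0.0652 and 0.140), and the day 8 call with scaling to the 75th percentile (1.80, adjusted p = 0.0576). Without X14 single, days 5 and 6 were called higher too (2.03 and 2.05). On day 8 the ratio in summed reads was 2.38 (1.37 to 4.26). It was 1.20 in X14 (20 against 18 reads, 0.605 to 2.42) and 8.62 in X18 (24 against 2 reads, 3.21 to 113). These intervals cover counting error only.

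The libraries named double and single were compared over days 1 to 8 with day and line as covariates, 16 against 16 libraries. Ccnd1 was lower in double and Cdkn2b higher, and these 2 were called, 1 in each direction (background 2.93% higher and 1.61% lower). At an adjusted p under 0.05 without a minimum fold, 7 of the 9 differed, against 22.6% of genes tested. Successive days of a line and name are not known to be independent, so these p-values measure the spread between libraries, and only 2 series of libraries stand behind each name. Reads in genes had medians of 1439430.5 and 1157397.5 in the double series of X14 and X18 and of 1229140 and 1325392 in the single series. The summed level of ES cell markers over these days had a median of 736 RPKM in double (137 to 2321) and 576 RPKM in single (243 to 1769), with 1 of 8 called higher in double. That of trophoblast markers was 38.8 RPKM (11.2 to 196) and 19.9 RPKM (2.51 to 106), with 3 of 6 tested called higher in double. Their part in the differences between the names was not tested.

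Ccnd1 was lower in double by 1.02 on the log2 scale (−1.02, SE 0.14, adjusted p = 2.12e-06), below single in 15 of 16 pairs of the same line and day, and passed the test in each of 13 alternatives (−1.24 to −0.81). The difference was under 2-fold, so that the call was lost, in 5 of them. These were X18 alone (−0.81, adjusted p = 0.0167), without X14 double (−0.81, adjusted p = 0.00254) or X14 single (−0.81, adjusted p = 0.0164), with day 0 included (−0.93, adjusted p = 3.82e-05) and with voom (−0.92, adjusted p = 2.36e-06). The gap widened with time. It averaged −0.56 over days 1 to 4 and −1.49 over days 5 to 8, and the interaction of name and time was −0.93 (SE 0.22, adjusted p = 0.00924). On day 5 the pairs were 5.76 against 22.5 RPKM in X14 and 8.14 against 20.1 RPKM in X18, double first, whereas on day 3 they were 41.7 against 47.6 and 39.5 against 43.0 RPKM. Ccnd3 went the other way, higher in double by 0.47 (SE 0.11, adjusted p = 0.00160) in 14 of 16 pairs, and fell short of the test in X14 alone (0.33, adjusted p = 0.289) and without X18 double (0.33, adjusted p = 0.188) or X18 single (0.33, adjusted p = 0.180). Its pairs on day 4 were 137 against 66.4 RPKM and 178 against 69.5 RPKM. Ccnd2 did not pass the test (0.30, SE 0.25, adjusted p = 0.424).

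Ccne1 was lower in double by a small amount (−0.27, SE 0.07, adjusted p = 0.00749) in 15 of 16 pairs, and fell short of the test in X14 alone (−0.33, adjusted p = 0.0745), in X18 alone (−0.21, adjusted p = 0.0971) and without X14 double (−0.21, adjusted p = 0.177), X14 single (−0.21, adjusted p = 0.314) or X18 double (−0.33, adjusted p = 0.0640). Ccne2 showed no average difference past the test (0.14, SE 0.13, adjusted p = 0.455) but its difference turned with time. Double lay above single in all 8 pairs of days 1 to 4 (mean 0.51) and in 1 of 8 pairs of days 5 to 8 (mean −0.22), with an interaction of −0.72 (SE 0.21, adjusted p = 0.0430) that was just past the threshold without the filter on low values (adjusted p = 0.0510). Of all genes tested 5.84% had an interaction at an adjusted p under 0.05 and 4.09% were called, and of the 9 genes 2 and 0.

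All 4 inhibitor genes differed between the names. Cdkn1a was higher in double in 16 of 16 pairs by 0.69 (SE 0.09, adjusted p = 6.31e-07), and this passed the test in each of 13 alternatives (0.59 to 0.71). Its pairs on day 4 were 68.3 against 29.1 RPKM in X14 and 71.2 against 29.8 RPKM in X18. Cdkn1b was lower in double in 15 of 16 pairs by 0.47 (−0.47, SE 0.11, adjusted p = 0.00251), and fell short of the test in X18 alone (−0.43, adjusted p = 0.0799) and without X14 double (−0.43, adjusted p = 0.0838) or X14 single (−0.43, adjusted p = 0.166). Cdkn2a was higher in 14 of 16 pairs by 0.89 (SE 0.20, adjusted p = 0.00142), and fell short of the test in X14 alone (0.91, adjusted p = 0.0779) and without X14 single (0.86, adjusted p = 0.0589). Cdkn2b was higher in 15 of 16 pairs by 1.45 (SE 0.25, adjusted p = 8.09e-05), with 1.31 in X18 alone (adjusted p = 0.0514), on a scale where a library without reads counts as 0.9 read.

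**Figure D4:**
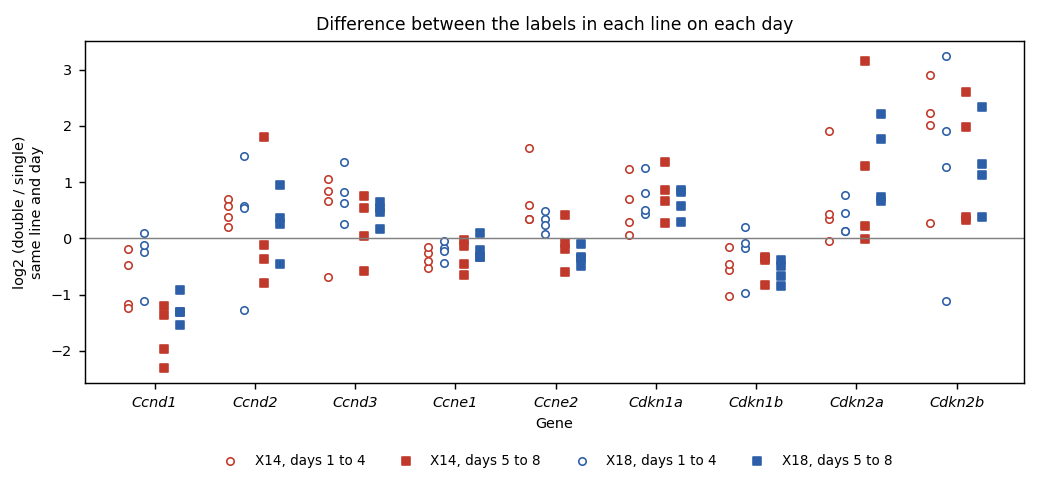
Log2 difference (vertical axis) between the double and single library of the same line and day for each of the 9 genes, open circles for days 1 to 4 and filled squares for days 5 to 8, X14 in red and X18 in blue, with 16 points per gene. All 16 points of Cdkn1a lie above 0 and 15 of 16 points of Ccnd1 lie below it, with a mean of −0.56 on days 1 to 4 and −1.49 on days 5 to 8 and overlapping points.

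Between the lines, 0 of the 9 genes were called by limma on days 1 to 8, where 0.0137% of all genes were called, and voom also called 0. Each of them had 1 of the 9 at an unadjusted p under 0.05. That gene was Cdkn2b, named after its value was seen (X18 minus X14 0.59, SE 0.25, adjusted p = 0.446). The interaction of line and time gave 0 calls among the 9 and 0.00% over all genes by limma, with 680 of all genes and 0 of the 9 at an unadjusted p under 0.05, and voom gave 0 calls with 560 of all genes at that level.

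The other genes of the pathway were counted in lists, and these counts are read against 12.2% of all genes called higher and 6.40% called lower on day 4, and 23.9% and 11.1% on day 8. Of 6 tested G1 kinases and activators, such as Cdk2, Cdk4 and Cdk6, none was called on day 4 or day 8, with medians of −0.09 and −0.67 against medians of 0.12 and 0.23 over all genes. Of 12 replication genes that E2F drives, none was called on day 4 (median 0.36) and 5 were called lower on day 8 (median −0.69), with Rrm2, a subunit of ribonucleotide reductase, falling from 246 ± 46.2 to 70.3 ± 16.4 RPKM (log2 change −1.82, SE 0.20, adjusted p = 4.54e-09) and Tyms, thymidylate synthase, from 26.1 ± 9.85 to 7.57 ± 2.48 RPKM (−1.76, SE 0.28, adjusted p = 3.64e-06). None of 5 S, G2 and M phase cyclin and kinase genes was called on either day (medians 0.04 and 0.21). Of 13 pocket protein and E2F genes 4 were higher and 1 lower on day 4 (median 0.32) and 3 higher and 1 lower on day 8 (median 0.31), with E2f7 (2.02, SE 0.49, adjusted p = 9.89e-04) and Rb1 (1.24, SE 0.48, adjusted p = 0.0329) the largest on day 8. Of 6 tested genes for turnover of cyclin E and p27 none was called on day 4 (median −0.12), and on day 8 Skp1a alone was lower (−1.03, SE 0.30, adjusted p = 0.00584, median −0.05). Of 13 genes of p53 and its targets 3 were higher and 0 lower on both days (medians 0.06 and 0.22), on day 8 a share near that of all genes, with Perp (2.84, SE 0.32, adjusted p = 7.76e-09) and Plk2 (1.68, SE 0.26, adjusted p = 2.49e-06) the largest. The 3 of 13 pocket protein and E2F genes higher on day 8 were near that share too. Between the names, these lists held 1 call lower in double among the G1 kinases and activators, 1 higher among p53 and its targets, and 0 in the other lists, where 2.93% of all genes were called higher and 1.61% lower.

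The remaining CDK inhibitor genes held the greatest change of the pathway. Cdkn1c, which encodes p57, an imprinted inhibitor of the same family as p21 and p27, rose from 1.86 ± 0.605 RPKM on day 0 to 16.9 ± 5.75 RPKM on day 4 and 148 ± 69.7 RPKM on day 8 (SD, n = 4 each), a log2 change of 6.26 (SE 0.37, adjusted p = 2.55e-15). On day 8 its level lay between 82.8 and 214 RPKM, above Cdkn1a (37.5 to 69.1 RPKM) and Cdkn1b (10.4 to 24.6 RPKM), whereas on day 0 it lay below both. Cdkn2d was called lower on day 4 (−1.05, SE 0.28, adjusted p = 0.00527) and Cdkn2c was not called on either day. The list of 3 had 1 higher and 1 lower on day 4 (median −1.05) and 1 higher and 0 lower on day 8 (median 0.59).

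For the 7 genes called on some day against day 0, the genes most like them in log2 level over the 36 libraries were taken from the 9403 genes that reached 10 RPM on average. Libraries of a day, line and name share their source, so these values are a description. Ccnd1 was most like Ctbp2 (Pearson r = 0.936), Zscan10 (0.885) and Eftud2 (0.872), and Ccnd2 was most like Mest (0.843), Nav2 (0.835) and Qser1 (0.831). Ccnd3 followed Mov10 (0.890), E130012A19Rik (0.853) and the X-linked Aifm1 (0.843). Ccne2 was most like Chordc1 (0.865), Dynll1 (0.858) and Mrpl3 (0.854), and Cdkn1b was most like Rhoq (0.892), Hbp1 (0.862) and Fam195b (0.848). Cdkn2a was most like Hat1 (0.812), Ube2l6 (0.801) and Gm5424 (0.798). For Cdkn2b, which is on chromosome 4, all 3 were on the X chromosome, Ngfrap1 (0.773), Wbp5 (0.770) and Maged2 (0.765). X-linked genes relative to autosomal genes, and Cdkn2b, were both higher in double over days 1 to 8. Cdkn2b also had only 0 to 20 reads per library. The part of the names and of the few reads in these values was not tested.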

How the data were processed

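RNA-seq of 36 libraries was used, with groups, lines and names from the labels. The study's methods name single-end sequencing, adapter trimming by trim_galore, alignment to mm10 by tophat or hisat2, and the RNA-seq quantitation of SeqMonk. The submitters' processing notes name bcl2fastq and TopHat2 2.0.12. The annotation version and the strand of counting are not given in the sources used here. The authors deposited log2 values, which were found to be log2 RPKM: 100% of genes resolved to whole reads (within 0.02 read), with 0.9 read written for 0 reads. All columns were mapped, and 0 had no sample.

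Genes at 1 RPM or more in at least 4 libraries (14612) were tested with limma 3.58.1 in R 4.3.3 (lmFit, eBayes with trend, two-sided, Benjamini-Hochberg over all genes tested), with day as factor and all 36 libraries in one fit. Name and line were tested over 32 libraries of days 1 to 8, with the other and day as covariates. The code was tested on simulated data. A replicate number marks the same line and name on every day, so pairing comes from the labels. Deviations of same-numbered libraries from the day means had median correlations of 0.127 to 0.191 (lowest −0.578). Between day 0 and later days the medians were −0.048 in X14 double and −0.074 in X14 single. They were 0.136 in X18 double and 0.21 in X18 single. For X14 the pairing of day 0 with later days therefore rests on the labels alone, also in the blocked fit. The fit without this block was kept as main and the blocked fit run as an alternative.

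Members and lists were chosen with earlier results of these data known. All members are named. Of each pathway list up to 2 genes with the largest called change on day 8 are named, and for each member called against day 0 the 3 genes with the highest Pearson correlation. The reads carry no molecular identifiers, so floors and intervals cover counting error only. Alternatives were the replicate block, only the days compared, each replicate left out, the X14 day 0 libraries left out, all 9 days or each line or name alone, no filter or a mean of at least 10 RPM, scaling to the 75th percentile, quantile normalisation, log2(RPM + 1), voom on recovered reads and no minimum fold.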

Additional observations from a re-analysis of the deposited data

Results flagged for a closer look

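The difference between the libraries named double and single changed with time for 2 of the 9 genes, by a test of the interaction of name with days 5 to 8 against days 1 to 4. For Ccnd1 the interaction was −0.93 on the log2 scale (adjusted p = 0.00924). For Ccne2 it was −0.72 (adjusted p = 0.0430, and 0.0510 without the filter on low values). For single libraries standing far from the other 3 of their day, 81 groups of a gene and a day were examined with Dixon's criterion. Of these 0 passed, where chance would give about 1 in 20 if the libraries of a group were alike. Each group held 2 libraries named double and 2 named single. A difference between the names splits such a group evenly, so the criterion cannot show that outliers were absent.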

How the results depend on the processing

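Depth limits Ccnd2 on day 0, Cdkn2a and Cdkn2b, whose values rest on few reads, and 4 libraries a day limit the rest. No change of a named gene reversed under an alternative. Over the changes of single genes that passed the test, 411 alternative values kept their standing (called, or past the test but under 2-fold), 103 lost it and 12 under-2-fold changes became calls. The cause of such a loss or gain was not tested, except that fits of 2 days or 3 replicates hold fewer libraries. Cdkn2b could not be tested at a mean of at least 10 RPM.

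Of the 9 genes, leaving out 1 replicate (1 line and name on all days) gave 0 to 4 calls for day 2 (3 with all replicates), 1 to 3 for day 3 (2) and 1 to 2 for day 4 (1). It gave 2 to 4 for day 7 (4), 1 to 2 for day 8 (2), 1 to 3 for day 8 against day 4 (3) and 1 to 2 between the names (2). Without replicate 3 (X18 double) or replicate 4 (X18 single), 0 of the 9 were called on day 2. Without the X14 day 0 libraries the calls on days 1 to 4 numbered 1, 5, 5 and 2, and day 8 had 4. A fit of only the 2 days compared called 0 on day 2. A mean of at least 10 RPM called 1 on day 8 and 1 between the names, scaling to the 75th percentile called 2 on day 4 and 1 on day 8, and quantile normalisation called 1 on day 8 and 1 (Ccnd1) for the interaction of name and time. Without a minimum fold, 5 passed on day 3, 3 on day 4, 4 on day 8, 7 between the names and 2 for that interaction. Between the names, all 9 days gave 1, X18 alone 0 and voom 1.

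With the replicate block 12 genes in all were called on day 1 and 687 instead of 433 on day 2. Of the 9 genes, 4 were called instead of 3 on day 2, 3 instead of 2 on day 3 and 5 instead of 4 on day 7, and the block changed no other call of theirs. The counts over all genes moved by over 1.5 times in these cases. Leaving out 1 replicate gave 0 to 141 for day 1 (10 with all), 31 to 1999 for day 2 (433) and 441 to 2950 for day 3 (1299). It gave 1656 to 3828 for day 4 (2720), 3246 to 5640 for day 6 (4874), 384 to 735 between the names (663) and 2 to 9 between the lines (2). Without the X14 day 0 libraries, where day 0 is X18 alone, 820, 3394, 3644 and 4355 were called on days 1 to 4. Only the 2 days compared gave 0 on day 1 (293 at an unadjusted p under 0.05), 17 on day 2 and 389 on day 3. Voom gave 0 on day 1 (641 unadjusted) and 215 on day 2, and quantile normalisation 6 and 282. A mean of at least 10 RPM, which tests 9403 genes, gave 4 for day 1, 1728 for day 4 and 2497 for day 5 (3916). It gave 3389 for day 7 (5178), 3222 for day 8 (5114), 2041 for day 8 against day 4 (3606), 319 between the names, 1 between the lines and 340 for name and time (597). Between the names, all 9 days gave 437, X18 alone 408, log2(RPM + 1) 439 and no minimum fold 3298, and no minimum fold gave 1956 on day 3. Between the lines, double alone gave 1 and single alone gave 1.

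The share of higher among all calls was 70.4% on day 2, 64.4% on day 3 and 67.0% on day 6, and day 8 had 68.1%. Scaling to the 75th percentile gave 55.3%, 54.0%, 56.5% and 57.6% for these days in turn. Quantile normalisation gave 57.1% on day 2 and 54.5% on day 4 (65.6% as deposited). For days 6, 7 and 8 it gave 49.6%, 50.1% (67.3% as deposited) and 50.4%, and for day 8 against day 4 51.5% (63.5%). With 10 calls on day 1 the share was 50%, and 33.3% of 9 calls with log2(RPM + 1). Between the lines 50% of 2 calls became 33.3% with voom.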
